A study of Mus musculus with 6 samples.

Results

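Granzymes, perforin and the regulators that accompany them were followed in 10 genes of the 26332 counted: the granule proteases Gzma, Gzmb, Gzmk and Gzmm, the granule proteins Prf1, Nkg7 and Srgn, the T-box transcription factors Tbx21 and Eomes, and the cytokine gene Ifng. The genes were picked by name, as members of the cytotoxic programme of lymphocytes, with earlier results of these data known. All 10 had a row in the count table. The RNA came from double negative 3 (DN3) thymocytes of C57BL/6 mice, sorted as CD25+ cells without CD44, CD3, TCRβ, CD8, NK1.1 or CD1d tetramer staining. Wild type (WT) mice gave 4 libraries, of which WT 1, 2 and 3 were from females and WT 4 from a male. Tcf7 knock-out (KO) mice gave 2 libraries, KO 1 from a male and KO 2 from a female. Each library came from an individual mouse. The sources used here give no age, no knock-out allele and no cell type to which it might be confined. The comparison asked what the loss of Tcf7, which encodes TCF-1, does to RNA levels in DN3 cells.

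Cytotoxic lymphocytes kill by releasing granules in which granzymes, a family of serine proteases, are packed on the proteoglycan serglycin (Srgn). Perforin (Prf1) forms the pore through which granzymes reach the target cell, and Nkg7 is a membrane protein of the granules. The T-box factors T-bet (Tbx21) and Eomes drive this programme in CD8 T cells and natural killer (NK) cells, together with interferon-γ (Ifng). DN3 thymocytes are precursors at the stage of T-cell receptor β rearrangement and are not known as killer cells. TCF-1 is a transcription factor related to LEF-1 and is required for normal early T-cell development.

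Libraries held 23711513 to 41666797 counts in WT, 19589938 in KO 1 and 13673860 in KO 2. Levels are given as CPM, read counts relative to library size after TMM scaling, on which 3 counts, the upper limit that a count of 0 allows, are 0.0724 to 0.125 CPM over the WT libraries, with KO 1 at 0.154 and KO 2 at 0.224 CPM. Such limits and the intervals given with ratios cover counting error only, since amplified reads are not independent molecules. Tcf7 itself stood at 2094 to 2326 CPM over the WT libraries, against 1133 and 1022 CPM in the KO libraries (log2 fold change -1.05, SE 0.086, adjusted p = 0.00127). Part of its reads thus remained in KO, and the deleted exons are not named in the sources used here. All 10 DN3 markers examined, among them Il2ra, Ptcra and Rag1, had counts in every library, with a summed level of 13310 to 14200 CPM over the WT libraries, with KO 1 at 9725 and KO 2 at 10390 CPM. In bulk RNA, fewer cells of a type and less RNA per cell cannot be told apart. KO 2 stood apart from the other libraries in markers of other cells: 5 markers of CD8 or double-positive T cells summed to 1800 CPM there, to 228 CPM in KO 1 and to at most 20.2 CPM in WT, although the sort left out CD8+ cells, and 8 B-cell markers summed to 182 CPM, against at most 51.9 CPM elsewhere. Fold changes are KO over WT from edgeR's quasi-likelihood test with sex as a term, and adjusted p-values are Benjamini-Hochberg values over all 13294 genes tested. At an adjusted p under 0.05, 30.7% of those genes differed, 14.1% higher and 16.5% lower in KO. Of the 10 DN3 markers, 5 were lower, 1 was higher and 4 did not pass, with a median log2 change of -0.61. Il2ra (log2 -1.17) and Ptcra (log2 -0.98) were among the lower. Rag1 did not pass, at 1476 to 1925 CPM over the WT libraries, with KO 1 at 521 and KO 2 at 1953 CPM. With 1 library left out, the number of genes called lay between 881 and 4321 higher and between 784 and 5152 lower, with the lowest numbers without WT 1 and the highest without KO 2.

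Of the 10 genes, 8 had enough counts for the test. Gzma, Gzmb and Prf1 rose in KO, Ifng fell, and Gzmm, Nkg7, Srgn and Tbx21 did not pass. Gzmk and Eomes, with 2 and 6 counts over all libraries, were not tested. Gzmb and Prf1 reached the level needed for testing (0.403 CPM in at least 2 libraries) in both KO libraries and in only 1 WT library each, and Ifng reached it in WT libraries only. For these 3 genes entry into the test thus depended on the group where they were high. The calls stand beside the 30.7% of all genes called, and the median log2 change of the 8 genes was 0.15, against -0.04 over all genes tested. Without KO 2, 4 of the genes were called lower, without WT 4 or KO 1, 2, and without WT 1, 2 or 3, none with edgeR (2 at an unadjusted p under 0.05 without WT 2 and 1 without WT 1 or WT 3).

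**Figure D1:**
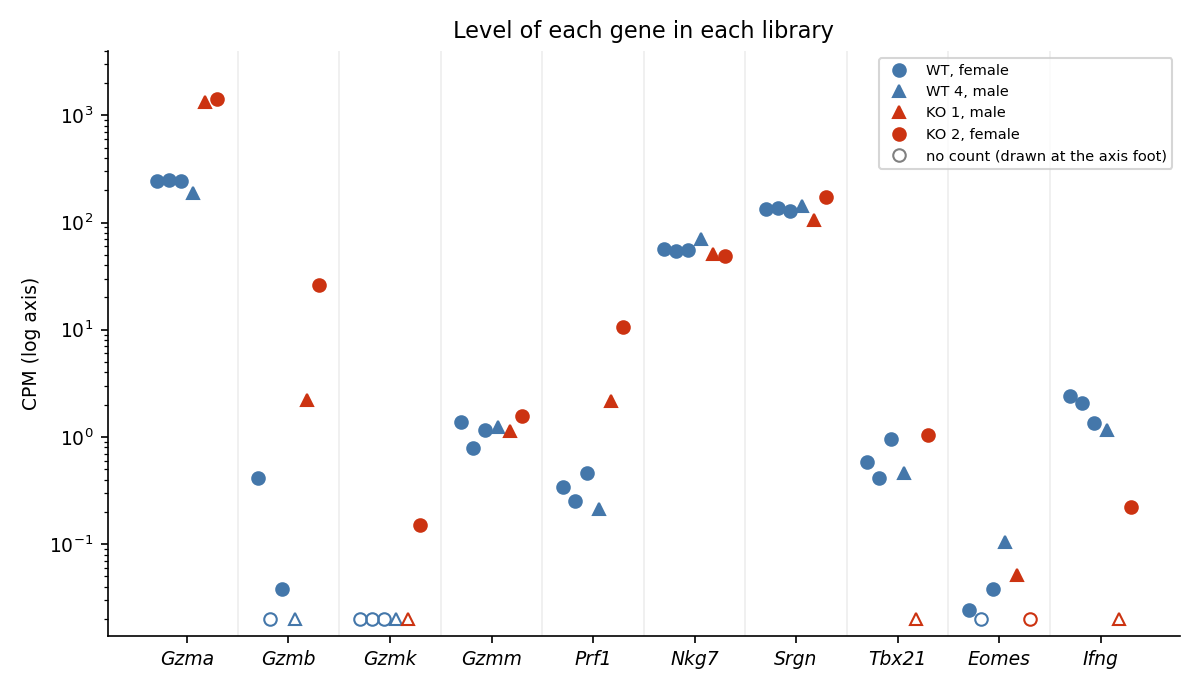
CPM of the 10 genes in each of the 6 libraries, on a log axis, with 1 point per library, WT in blue, KO in red, circles for females and triangles for males, and open symbols at the foot of the axis for libraries without a count. Gzma, Gzmb and Prf1 have both KO points above all 4 WT points, Nkg7 and Ifng have both below, and the other genes overlap.

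Granzyme A (Gzma), a tryptase-like protease, was the most abundant of the 10 genes in every library and rose about 6-fold in KO. Gzma (Entrez 14938, chromosome 13, 113093824 to 113100981, minus strand, build GRCm38.p6, the mm10 assembly) stood at 244, 247, 244 and 188 CPM in WT 1 to 4, a mean of 231 ± 28.9 (SD, n = 4), against 1333 CPM in KO 1 and 1407 CPM in KO 2. Both KO libraries lay far above WT and differed from each other by a ratio of only 1.06. The change was 6.26-fold (log2 2.65, SE 0.084, adjusted p = 0.000113), and over 14 alternative fits the log2 value stayed between 2.48 and 2.82, each past the threshold. By CPM Gzma ranked between 790 and 1166 among all genes in the WT libraries and 34 in each KO library. Per length it made up at least 98.8% of the summed RPKM (CPM per kilobase of counted gene length) of the 4 granzyme genes in each of the 6 libraries. The WT libraries themselves held 5339 to 10105 Gzma counts.

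The genes around Gzma did not pass the test. Among 7 other protein-coding genes within 150 kb, 5 were tested and none was called with edgeR, DESeq2 or limma-voom. Over all genes tested, 30.7% were called with edgeR. At an unadjusted p under 0.05 there was 1, Cdc20b, with edgeR and DESeq2, and 0 with limma-voom. Gzmk, the nearest granzyme gene, 70.6 kb away on the same strand, had no count in 5 libraries and 2 counts in KO 2. Esm1, a secreted proteoglycan gene beyond Gzmk, stood at 19.3 to 20.7 CPM over the WT libraries, against 40.9 and 7.09 CPM in the KO libraries (adjusted p = 0.697). Dhx29, an RNA helicase gene, was at 59.0 to 66.1 CPM over the WT libraries, against 79.9 and 65.8 CPM in the KO libraries (adjusted p = 0.258). Cdc20b overlaps Gzma in the annotation, and the library kit does not mark strand. It had 4 to 13 counts in the WT libraries and 17 in each KO library (log2 1.74, SE 0.59, adjusted p = 0.0787), few beside the 5339 or more of Gzma.

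**Figure D2:**
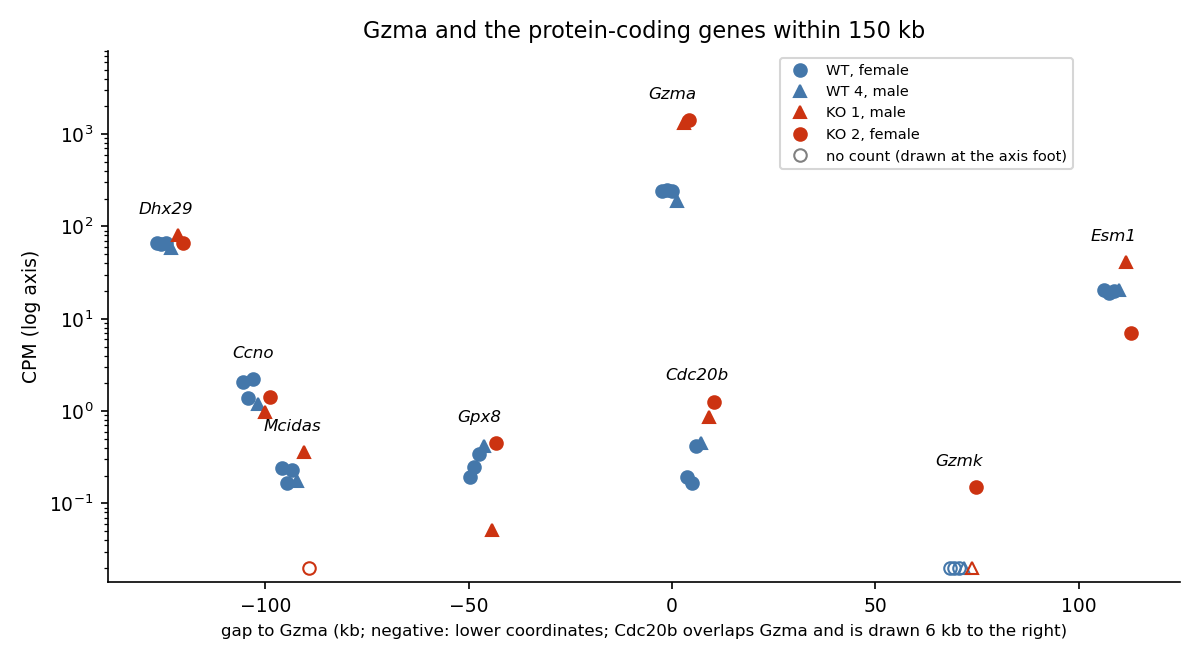
CPM in each library, on a log axis, of Gzma and the protein-coding genes within 150 kb, placed by the gap in kb between gene ends, with symbols as in the plot of all 10 genes. Gzma moves from 188 to 247 CPM over the WT libraries to KO levels of 1333 and 1407 CPM, while Dhx29 stays between 59.0 and 79.9 CPM and Gzmk is at 0 in all libraries except KO 2.

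Granzyme B (Gzmb), an aspartate-cleaving protease that sets off apoptosis in target cells, was close to absent in WT and present at unequal levels in the KO libraries. Gzmb (Entrez 14939, chromosome 14, 56258836 to 56262334, minus strand) had 17, 0, 1 and 0 counts in WT 1 to 4, and 43 and 349 counts in KO 1 and KO 2, or 2.20 and 26.1 CPM. Both KO libraries were above the highest WT library (0.411 CPM), with KO 2 at 11.8 times the level of KO 1. Gzmb rose with a fitted log2 change of 7.22 (SE 0.948, adjusted p = 0.0055). Since WT 2 and WT 4 have no count, the fitted value depends on how zeros are handled, and the ratio of pooled counts was 79.3 (exact 95% interval 49.5 to 135). With KO 1 alone over all WT it was 14.7 (8.28 to 27), and with KO 2 alone 174 (108 to 296). Without WT 1, the library with nearly all WT reads, WT had 1 count and the ratio was 934 with an interval of 167 to 36980, while the call held (adjusted p = 0.00642). Without KO 2 the log2 value was 8.93, where the sex term leaves KO 1 against WT 4 alone, which has no count. Without KO 2 and the sex term it was 3.90. These fits hold 1 KO library and carry no spread between KO mice. Without WT 1 the log2 value was 9.89. The summed level of the CD8 or double-positive T-cell markers had the same order, with KO 2 above KO 1 and both above WT, and its part in the level of Gzmb was not tested. Of 14 alternative fits, 13 kept the Gzmb call, among them those with 1 KO library. A replicate block in place of sex ended it (log2 5.30, adjusted p = 0.404). That fit compares only KO 1 with WT 1 and KO 2 with WT 2.

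The other genes of the granzyme B cluster had few or no counts. Gzmc, 17.2 kb from Gzmb, had 3 and 1 counts in WT 1 and WT 2 and no count elsewhere. Gzmd, Gzme, Gzmf, Gzmg and Gzmn, which follow within 138.2 kb, had no count in any of the 6 libraries. These genes resemble each other closely, so reads that match several copies may have been lost in counting.

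Perforin (Prf1) also rose, again with KO 2 above KO 1. Prf1 (Entrez 18646, chromosome 10, 61297751 to 61304684, plus strand) had 14, 6, 12 and 6 counts in WT, or 0.338, 0.251, 0.46 and 0.211 CPM, and 42 and 141 counts in KO, or 2.15 and 10.5 CPM. No WT library reached KO 1, and KO 2 was 4.90 times KO 1. The log2 change was 4.41 (SE 0.444, adjusted p = 0.00247), and the ratio of pooled counts was 17.5 (exact 95% interval 12.3 to 25.6). With KO 1 alone that ratio was 6.78 and with KO 2 alone 33.2. Without KO 2 the log2 value was 3.31, and without KO 2 and the sex term 2.74. These fits hold 1 KO library and carry no spread between KO mice. Of 14 alternative fits, 13 kept the Prf1 call, among them those with 1 KO library. A replicate block in place of sex, which compares only KO 1 with WT 1 and KO 2 with WT 2, ended it (log2 3.96, adjusted p = 0.126). Even in KO 2 the level per length of Prf1, 5.12 RPKM, was small beside 1603 RPKM of Gzma. The summed level of the CD8 or double-positive markers again had the order KO 2 above KO 1 above WT, and its part in the level of Prf1 was not tested.

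The upstream sequences of the 3 genes that rose, and of Gzmk, the neighbour of Gzma with almost no counts, are shown for the motifs they hold. They are RefSeq sequence of GRCm38.p6, 5′ to 3′ on the strand of the gene, and end at the last base before its annotated start. Capitals mark matches, on either strand, to 3 motifs: CTTTGA, a core that TCF-1 and LEF-1 bind, GGTGTG, the T-box core, and TGTGGT, the RUNX core. No matches overlapped. Gzma lies downstream of chr13:113100982-113101231, Gzmb of chr14:56262335-56262584, Prf1 of chr10:61297586-61297750 and Gzmk of chr13:113180966-113181215.
Gzma: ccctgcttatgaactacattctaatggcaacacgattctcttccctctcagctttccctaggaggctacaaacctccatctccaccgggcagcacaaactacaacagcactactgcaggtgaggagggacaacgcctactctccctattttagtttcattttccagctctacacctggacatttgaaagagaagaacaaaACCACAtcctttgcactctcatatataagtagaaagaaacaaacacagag
Gzmb: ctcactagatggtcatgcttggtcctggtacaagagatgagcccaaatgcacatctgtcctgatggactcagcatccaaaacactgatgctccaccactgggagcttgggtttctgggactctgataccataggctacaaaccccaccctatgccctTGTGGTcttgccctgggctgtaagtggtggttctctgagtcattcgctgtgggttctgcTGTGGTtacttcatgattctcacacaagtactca
Prf1: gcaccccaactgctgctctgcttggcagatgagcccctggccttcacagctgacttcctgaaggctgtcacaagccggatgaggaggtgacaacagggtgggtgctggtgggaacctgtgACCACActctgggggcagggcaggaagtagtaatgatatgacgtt
Gzmk: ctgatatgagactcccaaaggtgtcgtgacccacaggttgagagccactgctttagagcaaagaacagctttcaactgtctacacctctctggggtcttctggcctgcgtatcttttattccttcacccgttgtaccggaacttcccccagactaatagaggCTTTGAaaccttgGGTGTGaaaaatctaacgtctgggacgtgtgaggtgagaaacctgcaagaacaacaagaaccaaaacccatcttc
Each of the genes that rose held the RUNX letters near its start: the match began 50 bases upstream in Gzma, 93 and 34 in Gzmb and 45 in Prf1. Over all 10 genes, 5 windows held these letters (also Gzmm and Nkg7), 2 held the T-box letters (Gzmk and Nkg7) and only Gzmk held the TCF/LEF letters. These are windows of 1 start per gene. Gzmm and Srgn have 2 starts in the RefSeq table, and over any start 6 genes held the RUNX letters (also Srgn) and 3 the T-box letters (also Gzmm). Among 32851 RefSeq promoters, the 250 bases before the start held the RUNX letters in 14.0%, the T-box letters in 16.3% and the TCF/LEF letters in 13.8%. The Prf1 window is 165 bases long and ends just before its annotated start. In the first 165 bases of those promoter windows, the part farthest from the start, the RUNX letters were in 9.52%. A match of 6 letters is a description of the sequence and does not show that a factor binds there.

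The RNA of the RUNX factors themselves shifted in opposite directions. Runx3, which acts in CD8 and cytotoxic T cells, was at 55.6 to 60.1 CPM over the WT libraries, against 76.3 and 121 CPM in the KO libraries (log2 0.81, SE 0.169, adjusted p = 0.021), and this call was lost without WT 1, 2 or 3 (adjusted p = 0.0758 to 0.0795). Runx1, the main RUNX factor of early thymocytes, fell from 502 to 521 CPM over the WT libraries to KO levels of 379 and 296 CPM (log2 -0.64, SE 0.102, adjusted p = 0.00986). Their shared partner gene Cbfb was at 336 ± 6.89 CPM in WT and 204 and 322 CPM in KO, below all WT libraries, and did not pass (adjusted p = 0.155).

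Nkg7 and Srgn, the other granule genes that were high in WT beside Gzma, did not pass the test. Nkg7 (Entrez 72310, chromosome 7, 43437138 to 43438246) had levels of 57.1, 54.0, 54.9 and 70.0 CPM in WT 1 to 4, against 51.2 CPM in KO 1 and 48.7 CPM in KO 2. Both KO libraries were below all WT libraries, but the change was small and did not pass (log2 -0.29, SE 0.091, adjusted p = 0.0623). It passed in 4 of 14 alternative fits, DESeq2 (log2 -0.28, adjusted p = 0.0471) and those without WT 4 (log2 -0.19), KO 1 (-0.17) or KO 2 (-0.46). Apart from DESeq2, each rests on 1 KO library and carries no spread between KO mice. The fits without WT 4 and without KO 1 both compare KO 2 with the female WT libraries.

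Srgn, the core protein of the granule proteoglycan, went in opposite directions in the KO mice. Srgn (Entrez 19073, chromosome 10, 62493833 to 62527445) was at 133, 135, 128 and 143 CPM in WT, at 105 CPM in KO 1, below all WT libraries, and at 171 CPM in KO 2, above all of them. The joint test gave a log2 value of 0.06 (SE 0.18, adjusted p = 0.83). Without KO 2 the value was -0.45 (adjusted p = 2.56e-08), and without KO 1 it was 0.39 (adjusted p = 1.5e-08). Each of these fits has 1 KO library, the first sets it against WT 4 alone, and the spread comes only from WT libraries, so these p-values carry no spread between KO mice. KO 1 and KO 2 also differ in sex, and a difference between sexes cannot be told apart from one between these mice.

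Granzyme M (Gzmm), a protease of NK and innate-like T cells, was low, with 57, 19, 30 and 35 counts in WT and 22 and 21 in KO. Its level was 1.14 ± 0.248 CPM (SD, n = 4) in WT, against 1.13 and 1.57 CPM in the KO libraries (log2 0.24, SE 0.404, adjusted p = 0.682). Both KO libraries lay near or within the WT range, KO 2 just above it, and the ratio of pooled counts was 1.11 (exact 95% interval 0.77 to 1.57). At this depth a change within that interval was not detectable. Prss57, another serine protease gene 86.2 kb from Gzmm on chromosome 10 and chosen here after its values were seen, fell from 147 to 159 CPM over the WT libraries to KO levels of 49.7 and 52.0 CPM (log2 -1.59, SE 0.075, adjusted p = 0.000298).

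The T-box factors stayed at a few counts. Tbx21 (Entrez 57765, chromosome 11, 97098007 to 97115331) had 24, 10, 25 and 13 counts in WT, or 0.418 to 0.958 CPM, none in KO 1, which allows up to 0.154 CPM, and 14 in KO 2, or 1.04 CPM. KO 1 was thus below and KO 2 above all WT libraries, and the test gave a log2 value of -0.36 (SE 1.03, adjusted p = 0.822). Its sign turned without WT 4 (0.68) and without KO 1 (0.70), fits that both compare KO 2 with the female WT libraries. Without KO 2, with no count left in KO, the fitted log2 value was -6.69. Eomes (Entrez 13813, chromosome 9, 118478186 to 118486132) had 1, 0, 1 and 3 counts in WT and 1 and 0 in KO. A part of the T-box factors in the levels of the granule genes was not tested.

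Ifng fell to nearly no counts in KO. Ifng (Entrez 15978, chromosome 10, 118441046 to 118445894) had 100, 50, 35 and 33 counts in WT 1 to 4, or 2.41, 2.09, 1.34 and 1.16 CPM, none in KO 1 and 3 in KO 2, or 0.224 CPM. The groups did not overlap. Of the 8 genes tested, both KO libraries lay above all WT libraries for 3 (22.9% of all genes tested) and below them for 2 (28.6% of all genes tested), so groups that do not overlap were common, at 51.5% of all genes. The fitted log2 change was -3.93 (SE 0.856, adjusted p = 0.0239), and the ratio of pooled counts, WT over KO, was 20 (exact 95% interval 6.74 to 97.6). Leaving out WT 1, 2 or 3 ended the call (adjusted p = 0.0891, 0.0834 and 0.0629), as did limma-voom with weights per genotype (adjusted p = 0.452). Without KO 2, with no count left in KO, the fitted log2 value was -8.02, and without KO 1 it was -3.10. These fits hold 1 KO library and carry no spread between KO mice. Ifng thus moved against Gzmb and Prf1, genes with which it is commonly co-expressed in mature effector cells.

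**Figure D3:**
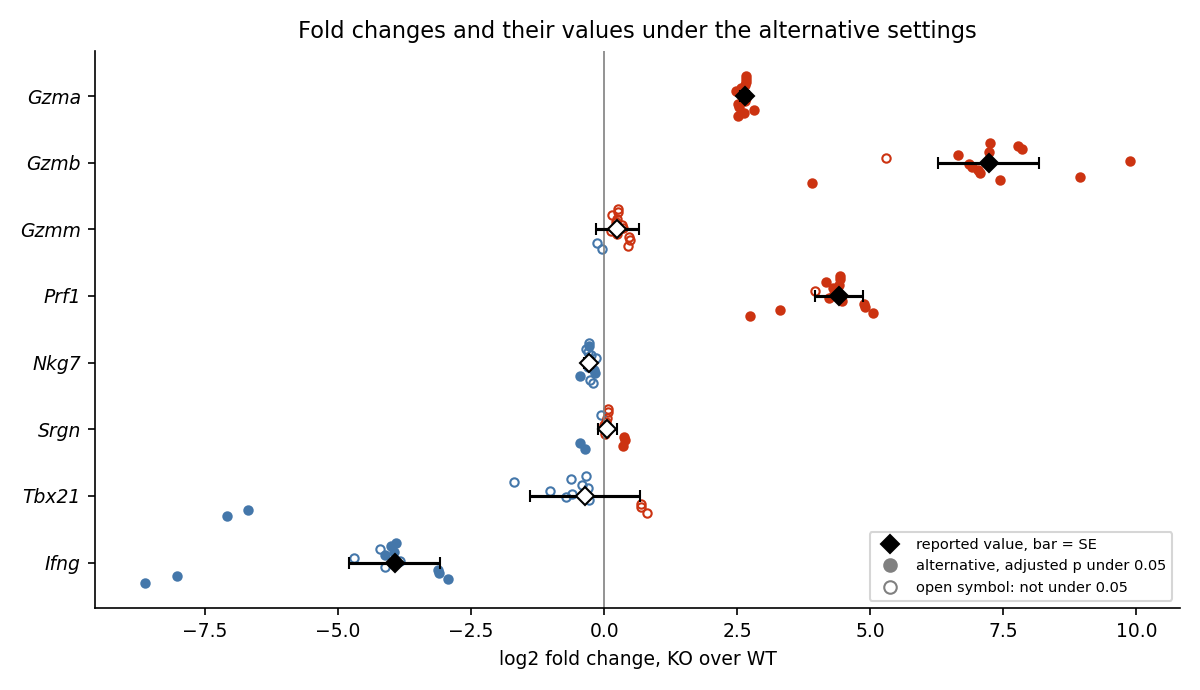
Log2 fold change, KO over WT, of the 8 genes tested: diamonds with the SE show the reported values, and circles the values under 14 alternative fits, both filled where the adjusted p was under 0.05. Gzma stays between 2.48 and 2.82, Gzmb and Prf1 stay positive over a wider range, Ifng stays negative, and Gzmm, Srgn and Tbx21 fall on both sides of 0.

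Ordered by level per length in WT, Gzma came first with a mean of 263 RPKM, then Srgn with 144 and Nkg7 with 72.6 RPKM, and the ranges of these 3 over the WT libraries did not overlap. Far below them came Ifng (1.45 RPKM) and Gzmm (0.885), which overlapped over the WT libraries, and then Tbx21 (0.236), Prf1 (0.153), Gzmb (0.0791) and Eomes (0.0113), of which each overlapped its neighbour in the order. Gzmk had no count. In KO 2 Gzmb (18.4 RPKM) and Prf1 (5.12) came directly after Gzma, Srgn (183) and Nkg7 (59.9), ahead of Gzmm (1.22), Tbx21 (0.409), Gzmk (0.188) and Ifng (0.185). In KO 1 the same 5 genes led in the same order, with Gzmb at 1.55 and Prf1 at 1.05 RPKM.

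Among 11638 other genes, leaving out clones, pseudogenes and small RNAs, those whose profile over the 6 libraries was most like that of each called gene were found by the Euclidean distance of centred log2 CPM. For Gzma these were Id3, an inhibitor of E proteins (34.1, 36.5, 38.4, 27.5, 190 and 227 CPM in WT 1 to 4, KO 1 and KO 2, distance 0.181), and Lrig1, a receptor regulator (distance 0.359). For Prf1 they were Ccr4, a chemokine receptor (distance 0.594), and Cnr2, a cannabinoid receptor (0.619). For Gzmb the nearest, Ryr2 and Dsg2, were at distances of 1.79 and 1.88, and for Ifng they were Lmtk3 (0.566) and Celf4 (0.745).

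Other genes of the programme were read from a list of 68 by role, of which 67 had a row and 51 were tested. The list was chosen with earlier results of these data known. Of these 51, 19 rose and 7 fell, with a median log2 change of 0.25, against 14.1% higher and 16.5% lower over all genes. Of the 26 called, 17 were called in each of the 6 fits that left out 1 library and 11 in all 14 alternative fits. With limma-voom 8 calls were lost: Ccl4 (adjusted p = 0.179), Bhlhe40 (0.153), Hlx (0.381), Stx11 (0.405), Prdm1 (0.127), Ifngr2 (0.265), Tnfsf10 (0.0523) and Bach2 (0.531). The number that rose was 11 without WT 1, 2 or 3, 32 without WT 4 and 35 without KO 1, and the number that fell was 14 without WT 4, 13 without KO 1 and 19 without KO 2. Of 13 tested genes of the machinery that matures and releases granules, 1 rose, 1 fell and 11 did not pass, beside 30.7% of all genes called. Stx11, a fusion protein of granule release, was at 0.422 to 0.882 CPM over the WT libraries, against 0.921 and 3.06 CPM in the KO libraries (log2 1.68, adjusted p = 0.025; lost without WT 1, 2 or 3 or KO 2, adjusted p = 0.0957 to 0.175, with a log2 value of 1.11 without KO 2). Sytl1, a partner of Rab27 proteins, fell from 129 to 174 CPM over the WT libraries to KO levels of 41.6 and 61.8 CPM (log2 -1.50, SE 0.219, adjusted p = 0.0075). Ctsc, the protease that activates granzymes, was at 62.4 to 66.8 CPM in WT, below that in KO 1 (50.6) and above it in KO 2 (122), and did not pass (adjusted p = 0.237). Rab27a, Unc13d and Lamp1 did not pass either (adjusted p = 0.337, 0.97 and 0.219).

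Among granzyme inhibitors, 1 of 3 tested rose, beside 14.1% of all genes called higher. Serpinb6b, a granzyme A inhibitor, rose from 23.0 to 26.4 CPM over the WT libraries to KO levels of 43.1 and 72.2 CPM (log2 1.26, SE 0.196, adjusted p = 0.00935), so the protease and an inhibitor of it were higher in the same 2 libraries. Serpinb9, the granzyme B inhibitor, was at 14.3 ± 1.16 CPM in WT and 6.65 and 25.5 CPM in KO (adjusted p = 0.777). Serpinb1a, a neutrophil protease inhibitor, was at 11.7 to 17.7 CPM over the WT libraries, against 0.0512 and 3.51 CPM in the KO libraries, below all WT libraries, without passing (adjusted p = 0.0759). Of 4 other death effectors, Lta, lymphotoxin α, rose from 0.141 to 0.209 CPM over the WT libraries to KO levels of 3.48 and 2.99 CPM (log2 4.29, SE 0.383, adjusted p = 0.00162). Lta reached the level needed for testing in KO libraries only, so its entry into the test depended on the group where it was high. Tnfsf10, the death ligand TRAIL, rose from 38.6 to 50.6 CPM over the WT libraries to KO levels of 68.2 and 72.8 CPM (log2 0.69, adjusted p = 0.00598). Fasl, Fas ligand, was at 0.125 to 0.604 CPM over the WT libraries, with KO 1 at 0.205 and KO 2 at 5.22 CPM (adjusted p = 0.126), and Tnf was at 1.81 to 2.65 CPM over the WT libraries, with KO 1 at 8.96 and KO 2 at 1.19 CPM (adjusted p = 0.62).

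Of 22 other regulators tested, 11 rose, 4 fell and 7 did not pass, beside 14.1% higher and 16.5% lower over all genes. The 4 rises of largest log2 change were Prdm1, the effector factor Blimp-1 (0.268 to 0.632 CPM in WT; 1.74 and 4.55 in KO; log2 2.97, adjusted p = 0.0171), Id3 (log2 2.70, adjusted p = 0.000103), Nfil3, which NK cells need to develop (0.869 to 1.50 CPM in WT; 8.09 and 7.02 in KO; log2 2.68, adjusted p = 0.00393), and Batf, an AP-1 partner (7.58 to 8.82 CPM in WT; 71.6 and 37.3 in KO; log2 2.55, adjusted p = 0.0012). The Prdm1 call was lost without WT 1, 2 or 3 or KO 2 (adjusted p = 0.0508 to 0.0771), and without KO 2 its log2 value was 1.44. Zeb2, which acts with T-bet in terminal effector cells, fell from 46.5 to 48.1 CPM over the WT libraries to KO levels of 1.33 and 1.49 CPM (log2 -5.05, SE 0.12, adjusted p = 4.97e-05), and Bhlhe40, a factor of cytokine production, fell by 2.08 on the log2 scale (adjusted p = 0.00602). Hlx, a partner of T-bet in inducing Ifng, had 63 counts in WT and none in KO (adjusted p = 0.0222, lost without WT 1, 2 or 3, adjusted p = 0.0752 to 0.0808). Its pooled ratio, KO over WT, had an exact 95% interval of 0 to 0.22. For Hlx and Prdm1 entry into the test depended on the group where they were high. Hlx reached the level needed in WT libraries only, and Prdm1 in both KO libraries and, among WT, in WT 4 only.

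Receptors upstream of cytotoxic genes gave 4 rises and 1 fall among 8 tested, beside 14.1% higher and 16.5% lower over all genes. Il2rb, the receptor chain for interleukins 2 and 15, was at 0.527 to 1.11 CPM over the WT libraries. It rose to KO levels of 20.4 and 25.8 CPM (log2 4.90, SE 0.228, adjusted p = 0.000298). Its level in KO 2 was 1.26 times that in KO 1, against 1.06 times for Gzma. Il12rb1, an interleukin 12 receptor chain, rose from 24.8 to 29.6 CPM over the WT libraries to KO levels of 50.9 and 69.6 CPM (log2 1.16, adjusted p = 0.00525). Il21r (log2 1.02, adjusted p = 0.0228) was within the WT range in KO 1 (56.6 CPM) and at 158 CPM in KO 2, and its call was lost without WT 1, 2 or 3 (adjusted p = 0.0777 to 0.084). The interferon-γ receptor chains went opposite ways. Ifngr1 fell from 416 to 461 CPM over the WT libraries to KO levels of 168 and 224 CPM (log2 -1.13, adjusted p = 0.00405), and Ifngr2 rose from 14.0 to 17.4 CPM over the WT libraries to KO levels of 21.7 and 31.9 CPM (log2 0.81, adjusted p = 0.0329; lost without WT 1, 2 or 3 or KO 2, adjusted p = 0.052 to 0.106, with a log2 value of 0.30 without KO 2). Of the effector chemokines and cytokines only Ccl4 could be tested, and it fell, from 672 counts in WT to 2 in KO, a pooled ratio of 92.3 (exact 95% interval 25.5 to 764, log2 -6.29, adjusted p = 0.00343). Ccl4 reached the level needed for testing in WT libraries only, so its entry into the test depended on that group. Ccl5, a chemokine of cytotoxic cells, had 17 counts over the WT libraries, none in KO 1 and 66 in KO 2. Ccl3, which was not tested, had 15, 5, 6 and 10 counts in WT 1 to 4 and none in either KO library. Csf2, Il2 and Xcl1 had at most 4 counts in any library.

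**Figure D4:**
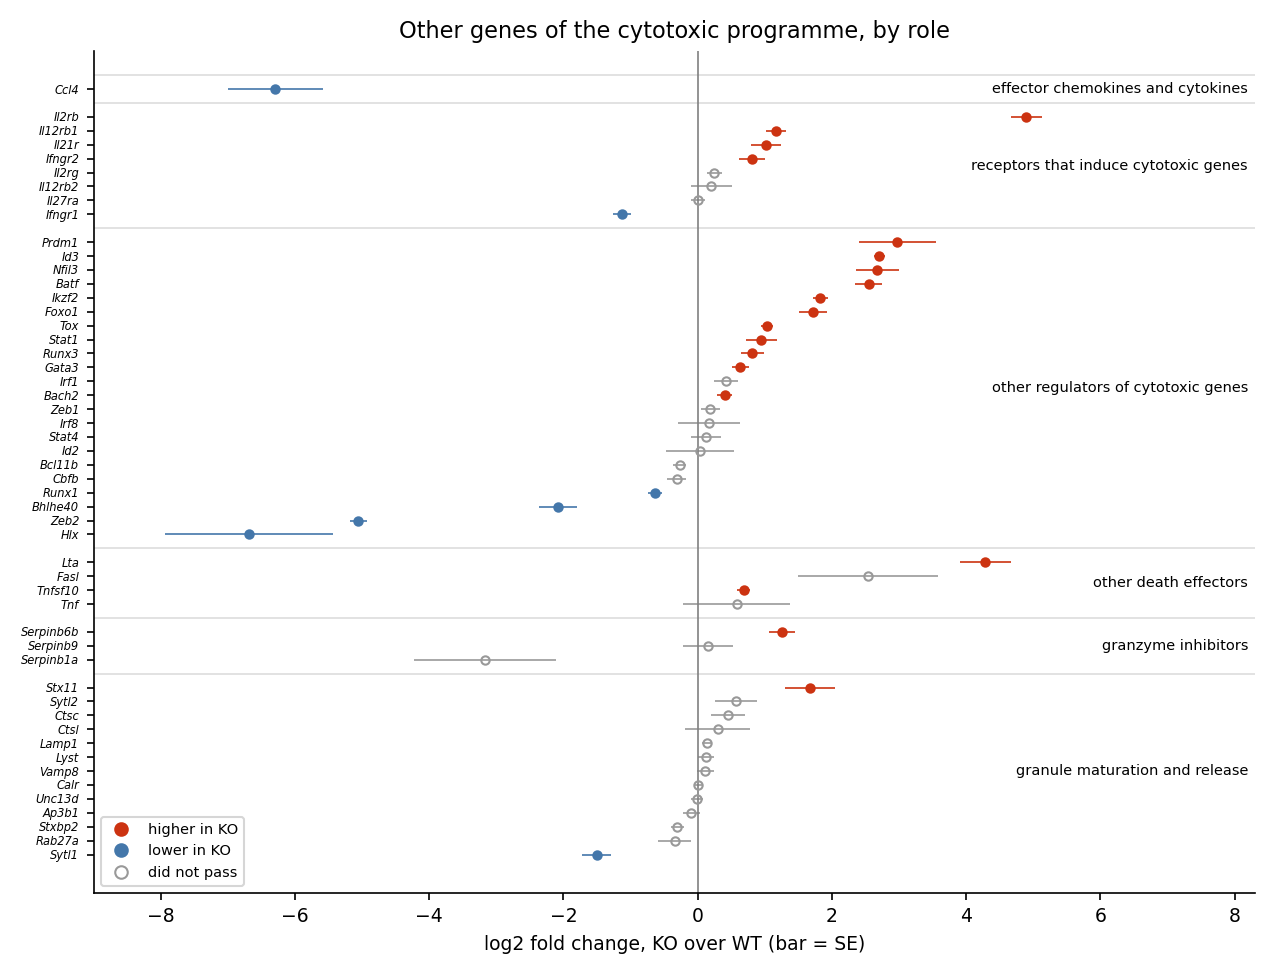
Log2 fold change, KO over WT, with its SE, of the 51 tested genes of the cytotoxic programme outside the 10, grouped by role; red is higher, blue is lower at an adjusted p under 0.05, and open grey symbols did not pass. The Hlx value is fitted against KO libraries with no count. Regulators and receptors spread widely, with Il2rb at 4.90 and Zeb2 at -5.05, while 11 of 13 granule genes did not pass. Over all genes tested, 30.7% were called.

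Markers of other cell types were summed in each library. NK cell markers, 14 genes, stood at 1.59 to 2.42 CPM over the WT libraries, with KO 1 at 0.819 and KO 2 at 3.81 CPM. In KO 1 only Fcer1g of the 14 had a count, and Ncr1, the gene of NKp46, was at 0 in both KO libraries. The summed NK marker level of KO 1 was below that of any WT library, and these sums rest on few counts. The part of NK cells in the levels of Gzma, Gzmb and Prf1 was not tested. KO 2 held 27 counts of Klrd1, a receptor gene of NK and CD8 T cells, and no other library more than 6. Markers of CD8 or double-positive T cells, 5 genes, had a sum of 7.17 to 20.2 CPM over the WT libraries and moved with Gzmb and Prf1. Cd8a was at 0.703 to 3.72 CPM in WT, 66.9 CPM in KO 1 and 858 CPM in KO 2, while Cd4 had no count in KO 1 and 12.8 CPM in KO 2. Gzma was at nearly the same level in KO 1 and KO 2, and the part of CD8 or double-positive cells in its level was not tested. B-cell markers, 8 genes, were at 43.4 to 51.9 CPM over the WT libraries, with KO 1 at 16.1 and KO 2 at 182 CPM, with Ms4a1, the gene of CD20, at 0 in all libraries except KO 2. Myeloid, mast and dendritic markers, 12 genes, were at 100 to 113 CPM over the WT libraries, against 82.4 and 104 CPM in the KO libraries. Of the 6 tested, 1 rose, 1 fell and 4 did not pass, beside 30.7% of all genes called. Itgam rose from 0.492 to 0.752 CPM over the WT libraries to KO levels of 4.81 and 6.87 CPM. Lyz2 fell from 16.75 to 18.45 CPM over the WT libraries to KO levels of 0.154 and 1.19 CPM. Erythroid markers, 5 genes, were at 3.65 to 14.3 CPM over the WT libraries, against 2.76 and 33.1 CPM in the KO libraries. The γδ T-cell markers, 6 genes, summed to 1516 to 1581 CPM over the WT libraries, against 2029 and 1759 CPM in the KO libraries, and went both ways. Cd163l1, a scavenger receptor gene of γδ T cells, was at 35.4 to 49.9 CPM in WT and at similar levels of 630.0 and 569.8 CPM in KO 1 and KO 2, and Blk and Sox13 were above all WT libraries too. Trdc, the δ chain constant gene, was at 302 to 341 CPM in WT, 22.0 CPM in KO 1 and 298 CPM in KO 2, and Trgc1 and Trgc2 were also below all WT libraries. The part of these cell types in the results was not tested.

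**Figure D5:**
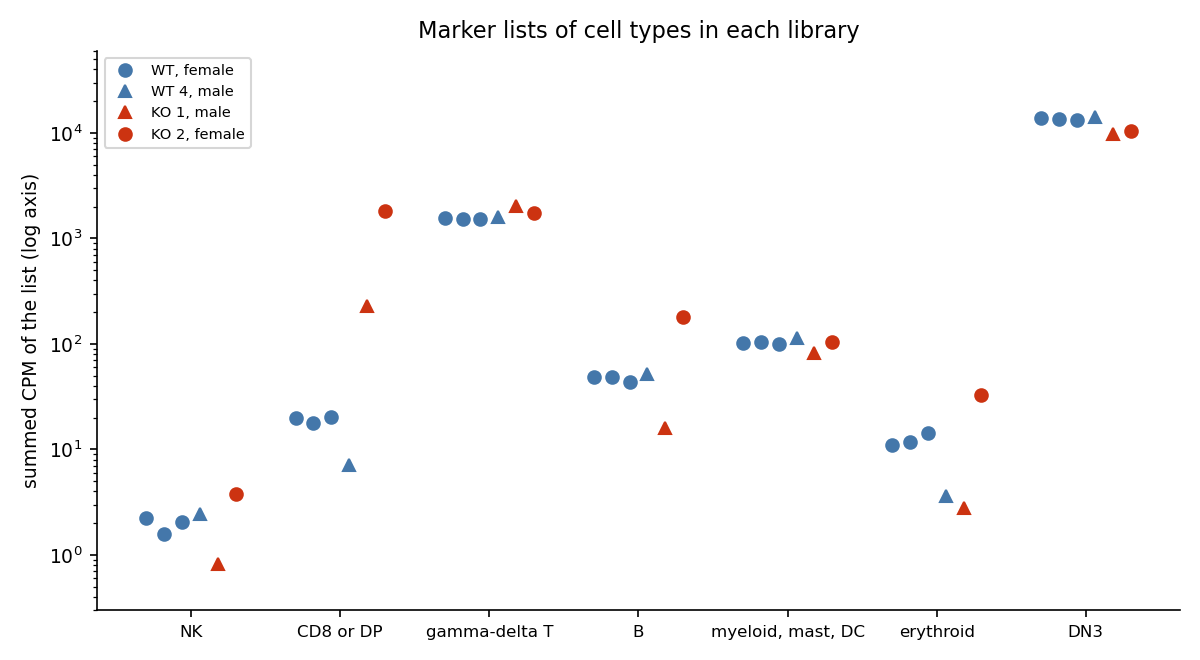
Summed CPM of the marker genes of each cell type in each library, on a log axis, with symbols as in the plot of all 10 genes. The CD8 or double-positive list rises from at most 20.2 CPM in WT to 228 CPM in KO 1 and 1800 CPM in KO 2, the NK list is at most 3.81 CPM, and KO 2 is the highest library for B-cell and erythroid markers.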

How the data were processed

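RNA of sorted DN3 thymocytes from individual mice was made into libraries with SMART-Seq v4, which does not mark strand, and sequenced in paired-end mode, per the labels' protocols. The values are raw read counts per gene, deposited by the authors; the submitters' processing notes name featureCounts and mm10. The sources used here give no aligner, annotation release or strand setting. RefSeq symbols were found for 25275 of the 26332 gene identifiers.

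The test was that of edgeR 4.0.16 in R 4.3.3. Genes passed filterByExpr (count minimum 10, by genotype), and counts were scaled by TMM and fitted with robust quasi-likelihood on genotype and sex, with 3 residual degrees of freedom and Benjamini-Hochberg adjustment over all 13294 genes tested. The SE is the log2 change divided by the square root of F. CPM are TMM-scaled, RPKM divide them by the gene length in the count table, and pooled ratios have exact 95% binomial intervals. Scripts were tested on simulated data.

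Alternatives were relative log expression size factors, DESeq2 1.42.0, limma 3.58.1 voom with weights per genotype, no filter, no sex term, a replicate block in place of sex, and each library left out. After the data were seen, each KO library was also left out with no sex term. With the sex term, leaving out KO 2 compares KO 1 with WT 4, and leaving out KO 1 or WT 4 compares KO 2 with the female WT libraries. In these fits, and in those with 1 KO library and no sex term, the spread comes from WT libraries only. Their p-values and calls carry no spread between KO mice.

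The genes, lists and markers were chosen with earlier results of these data known. All 10 genes were named; from the list by role, up to 4 called genes per role and direction with the largest log2 change were named, plus genes whose values stand beside one of the 10. The Gzma and Gzmb neighbours were taken by position, and protein sequences were not used here.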

Additional observations from a re-analysis of the deposited data

Results flagged for a closer look

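Among the WT libraries 9 of the 10 genes were screened for a library standing apart by Dixon's criterion, which chance meets in about 1 in 20 groups. Gzma in WT 4, the only male WT library, was at 187.6 CPM, apart from 244 to 247 CPM in the 3 female libraries and far below both KO libraries. Gzmb in WT 1 was at 0.4105 CPM (17 counts), against 0 to 0.0383 CPM in the other WT libraries.

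For 3 genes the KO library lay on opposite sides of the WT libraries in the sexes, and the difference between sexes was not tested. Gzmm in KO minus the WT mean was -0.104 CPM in males and 0.46 CPM in females. Srgn was -37.4 CPM in males and 39.1 CPM in females, and Tbx21 -0.457 CPM in males and 0.393 CPM in females. Each sex has 1 KO mouse, so sex and mouse cannot be told apart.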

How the results depend on the processing

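Over 14 alternatives for each of the 8 genes tested, 88 of 112 values kept their direction and side of the threshold, 7 lost the call, 9 gained one and 8 changed sign; Gzma kept its call in all 14. With DESeq2, 2 of the genes were called lower. With limma-voom, 987 genes were called higher and 513 lower, 0 of the 8 lower (0 at an unadjusted p under 0.05, against 2 with edgeR) and 4 of the wider list lower, and Srgn turned to -0.064. Leaving out 1 library gave 881 to 4321 genes higher and 784 to 5152 lower, 3 to 4 of the 8 higher and 0 to 4 lower, and 11 to 35 of the wider list higher and 6 to 19 lower. Tbx21 turned to 0.68 without WT 4 and 0.70 without KO 1, and without KO 2 Gzmm turned to -0.14 and Srgn to -0.45. Without 1 library, Gzmm thus lay between -0.14 and 0.48, Srgn between -0.45 and 0.39 and Tbx21 between -6.69 and 0.70, the lowest value against a KO library with no Tbx21 count. Without KO 1 and the sex term, 3514 genes were higher and 3664 lower, 34 and 11 of the wider list, and Tbx21 was 0.81. Without KO 2 and the sex term, 4020 genes were higher and 4898 lower, 3 of the 8 and 18 of the wider list were lower, Gzmm was -0.047 and Srgn -0.37. The cause was not tested.

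WT and KO share only the replicate numbers 1 and 2, which no label ties to a litter or day. Deviations from the group mean correlated at -0.11 and 0.03 between same-numbered libraries. With 2 KO libraries, the deviations of KO 1 and KO 2 mirror each other. Each WT library thus has opposite values with KO 1 and KO 2, and the correlations cannot show whether the numbers pair the mice. With a replicate block in place of sex, 413 genes were called higher and 335 lower, 1 of the 8 higher (Gzma) and 0 lower (1 at an unadjusted p under 0.05), and 8 of the wider list higher. The block compares only KO 1 with WT 1 and KO 2 with WT 2. Under the block Gzmb was 5.30 (adjusted p = 0.404), Prf1 3.96 (0.126) and Ifng -4.70 (0.188). Few counts limit Gzmk, Eomes, the WT levels of Gzmb and Prf1 and the KO levels of Ifng and Tbx21.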

Other observations

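Among the genes within 150 kb of the 10, 3 that differed are given here, chosen after their values were seen. Tbkbp1, which encodes a TBK1-binding adaptor and lies 20.8 kb from Tbx21, was at 11.9, 13.8, 13.8 and 16.5 CPM in WT 1 to 4 and 1.48 and 2.31 CPM in the KO libraries (log2 -2.90, SE 0.284, adjusted p = 0.00226). Itga9, an integrin chain gene 120.6 kb from Eomes, was at 4.68, 4.18, 5.56 and 4.53 CPM in WT and 20.3 and 21.4 CPM in KO (log2 2.16, SE 0.17, adjusted p = 0.00113). Tbx21 did not pass the test and Eomes was not tested, with no more than 25 and 3 counts in any library. Rnf17, a Tudor-domain gene 140.3 kb from Gzmb, had 27, 12, 11 and 8 counts in WT and none in KO (adjusted p = 0.0274). Rnf17 reached the level needed for testing in WT libraries only, so its entry into the test depended on that group. These adjusted p-values are from edgeR over all genes tested.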
